A study of Mus musculus with 15 samples.

Results

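Tcf15 and Dmrt2 encode transcription factors of the forming somite, and their RNA was followed here from mouse embryonic stem (ES) cells to paraxial mesoderm in culture. The members are the probe sets annotated to each gene alone, taking the brightest over all 15 arrays. Each gene had 1 such probe set, so no other probe set could serve as a check. The 2 genes stand among 18193 with a probe set of their own, of which 12400 were bright enough to be tested, both members included. The Tcf15 probe set is 1449592_at, and RefSeq places the gene at chr2:152143056-152149097 in the GRCm38.p6 build. The Dmrt2 probe set is 1426867_at, and the gene lies at chr19:25672394-25679013.

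The series holds 5 groups of 3 arrays, labelled as biological replicates with nothing more on their origin, so p-values measure the spread between these samples. ES cells (day 0) were of line E14, strain 129P2, unsorted, kept on inactivated fibroblast feeders in serum, passaged once without feeders, and held in 2i medium (the inhibitors CHIRON99021 and PD0325901) with LIF. All differentiated cells were grown in serum-free N2B27 medium with knockout serum replacement and received BMP4 at 10 ng/ml for 2 days. They were then kept in 0.5% DMSO and 0.1 µM of the BMP receptor inhibitor LDN193189, together with 1 µM of the Wnt agonist CHIRON99021 (CDL medium) or 10 ng/ml of the Wnt potentiator Rspo3 (RDL medium). The sample labels write the number in LDN193189 in several ways, and the protocol's spelling is used here. Day 4 cells were of line E14, sorted as positive for the Msgn1-repV reporter of presomitic mesoderm. Day 6 cells were of line CK35, strain 129Sv, sorted as positive for Pax3-GFP. CDL and RDL can be compared within a day. Between days 4 and 6, time cannot be told apart from line, strain and reporter, and against ES cells neither from medium and sort.

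Tcf15, also called paraxis, is a basic helix-loop-helix (bHLH) factor that works with an E protein partner and is held off DNA by Id proteins. Despite its symbol it is not a Wnt-responsive TCF/LEF factor. In mouse embryos it is needed for presomitic mesoderm to become epithelial somites, while segmentation itself goes on without it. Dmrt2 carries a DM domain, is found in the dermomyotome, the epithelial sheet that forms muscle and dermis, and is needed in mice for a normal dermomyotome and myotome. Meox1 and Meox2 have been placed upstream of Tcf15, and Pax3 upstream of Dmrt2, which acts in turn on the muscle gene Myf5.

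Both members were called lower in CDL at day 4 under every alternative run, but the promoter set held no entry for Tcf15. The region around the Dmrt2 start is therefore shown alone, and is taken from RefSeq. It covers chr19:25672161-25672460 on the plus strand of GRCm38.p6, from 250 bases before position 25672411 to 50 bases from it on. That position is the start used in the promoter table and lies 17 bases inside the start of the gene as annotated above, and motif positions are counted from it. Capitals mark the letters CCAAT, known as the CCAAT box.

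Dmrt2: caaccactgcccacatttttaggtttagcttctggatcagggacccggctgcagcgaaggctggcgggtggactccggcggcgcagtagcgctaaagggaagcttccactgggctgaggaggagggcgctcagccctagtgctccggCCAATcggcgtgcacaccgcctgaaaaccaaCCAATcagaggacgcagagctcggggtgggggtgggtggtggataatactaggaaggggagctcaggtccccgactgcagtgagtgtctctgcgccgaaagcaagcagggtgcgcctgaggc

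These 300 bases had a GC content of 62.7%. CCAAT was found 2 times, beginning 103 and 72 bases before position 25672411. At least 1 CCAAT, on either strand, stood in 37.4% of 32851 promoters of the same length, and 11.7% held it at least 2 times. The E-box CANNTG, the motif that bHLH factors bind, was not found on either strand of the Dmrt2 window, while 72.3% of promoters held it. CTTTG, the core of the LEF/TCF site, was likewise not found and stood in 53.9% of promoters. The RBPJ core TGGGAA (in 25.6% of promoters), the T-box motif TCACAC (14.5%) and the homeobox core TAATTA (5.29%) were also without a match in this window.

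The values are MAS5 signals, a brightness per probe set on a linear scale. For Tcf15 the signals were 139, 144 and 172 in ES cells. At day 4 they were 101, 75.8 and 97.6 in CDL and 313, 461 and 411 in RDL. At day 6 they were 1001, 1408 and 834 in CDL and 256, 466 and 411 in RDL. Tcf15 was therefore present above the array median everywhere, lowest in CDL at day 4 and highest in CDL at day 6, and RDL stood at a like level on both days. Within its arrays, the Tcf15 probe set ranked between the 67.0th and the 71.2nd percentile in CDL at day 4 and between the 93.7th and the 96.4th in CDL at day 6. The group means were 152 ± 17.8 in ES cells, 91.4 ± 13.6 in CDL and 395 ± 75.4 in RDL at day 4, and 1081 ± 295 in CDL and 378 ± 109 in RDL at day 6 (SD, n = 3 each).

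Dmrt2 read 7.20, 7.52 and 7.46 in ES cells. At day 4 its signals were 8.03, 11.6 and 9.63 in CDL and 40.8, 93.0 and 50.8 in RDL. At day 6 they were 251, 307 and 193 in CDL and 85.8, 203 and 119 in RDL. Dmrt2 was near the floor of the arrays in ES cells and in CDL at day 4, between the 7.72nd and the 22.5th percentile, and lay above the array median in the other 3 groups. Because the probe set lay below the 25th percentile on all 3 arrays of both dim groups, ratios against them are given as lower bounds. That percentile of each array stands in for the dim signal, a choice made after the values were seen. Such bounds concern the ratio of means and leave out the spread of the brighter arrays. The means were 7.39 ± 0.173 in ES cells, 9.74 ± 1.77 in CDL and 61.5 ± 27.7 in RDL at day 4, and 249.9 ± 57.0 in CDL and 136 ± 60.2 in RDL at day 6 (SD, n = 3 each). These are bulk RNA samples, in which fewer cells with a transcript and less of it per cell cannot be told apart, and signals of different probe sets are not set against each other.

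**Figure D1:**
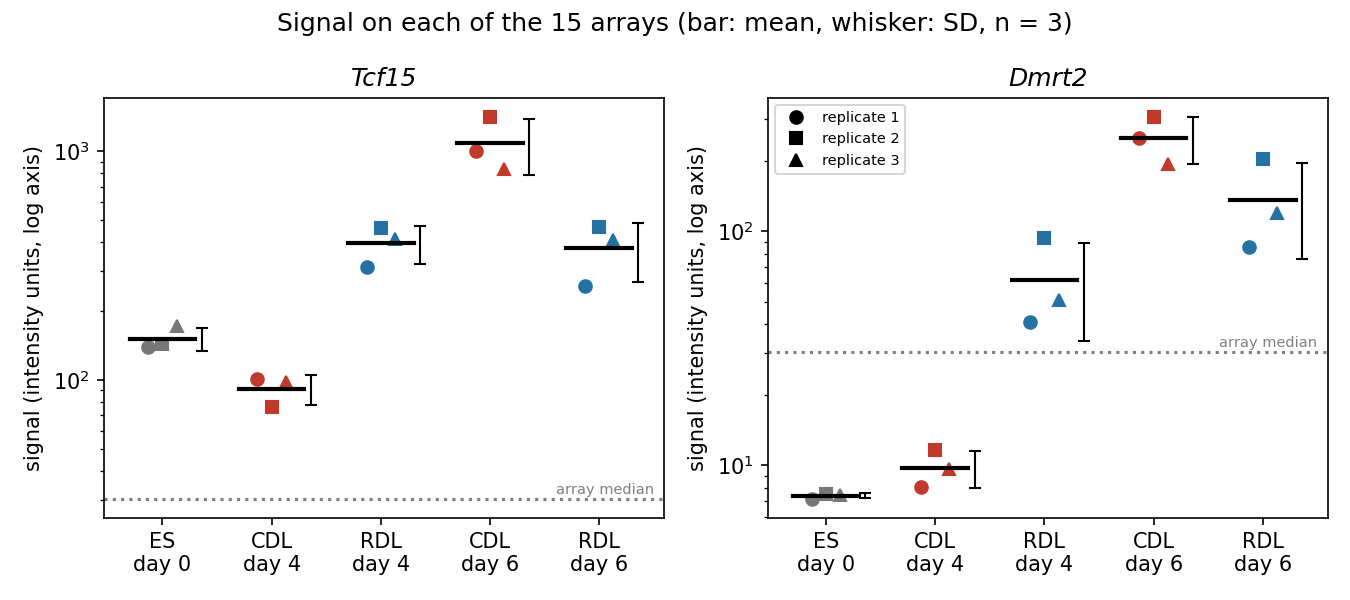
Signal (MAS5 intensity units, log axis) of Tcf15 (left) and Dmrt2 (right) on each of the 15 arrays, by group, with the mean as a bar, the SD as a whisker (n = 3) and the array median dotted. CDL is the lower medium at day 4 and has the higher mean at day 6 for both genes, with Dmrt2 arrays overlapping at day 6.

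Differences were fitted with limma on log2 of the signal plus 12.6, a constant that stops dim probe sets from giving large ratios, so folds of low genes are understated. A gene was called where its p-value, adjusted by the Benjamini-Hochberg method over all 12400 genes, was below 0.05. The deposited signals were alike in scale: the median difference over all genes lay between -0.04 and 0.00 in every comparison. This describes values after MAS5 processing, not the arrays before it. A single array of CDL at day 4 (replicate 1) stood apart, with a summed signal of 9 pluripotency genes of 14526 against 3280 to 3531 in the other 2 arrays of its group and 2753 to 2857 in RDL at day 4, and 36092 to 36242 in ES cells. In RDL at day 6, another array (replicate 1) had the lowest correlation with its group (mean r = 0.978). The reporter genes followed the sorts: Msgn1 averaged 337 in CDL and 196 in RDL at day 4, against 29.1 in ES cells and at most 43.9 at day 6, and Pax3 was highest at day 6. The members' differences are given with and without these arrays, and counts of list genes where they change. An exact permutation test of 3 arrays against 3 cannot give a two-sided p below 0.1, so none is used here.

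At day 4 both genes were lower in CDL than in RDL, and no array of one medium overlapped the other. Tcf15 in CDL had a mean 0.231 times that in RDL, a log2 difference of -1.96 ± 0.22 (SE, 95% interval -2.43 to -1.50, adjusted p = 7.17e-05). Dmrt2 in CDL was at least 4.92-fold lower than in RDL, with a fitted log2 difference of -1.67 ± 0.26 (SE, interval -2.22 to -1.12, adjusted p = 0.000974). In this comparison 4.41% of the tested genes were called, 2.9% higher and 1.52% lower, and the arrays of 24.5% did not overlap. Tcf15 had the 2nd lowest difference of all 12400. Without the CDL array that stood apart, the differences were -2.03 for Tcf15 (adjusted p = 0.000183) and -1.61 for Dmrt2 (adjusted p = 0.00417). The fitted Dmrt2 difference depends on the added constant, since the CDL signals lie below it: it was -0.87 with a constant of 50.4 and -2.25 with 3.15, and Tcf15 lay between -1.64 and -2.07 under the same changes.

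At day 6 both genes had the higher mean in CDL, a call kept under every alternative run for Tcf15 and a marginal one for Dmrt2. Tcf15 in CDL had a mean 2.86 times that in RDL, a log2 difference of 1.50 ± 0.22 (SE, interval 1.03 to 1.96, adjusted p = 0.000313), and the lowest CDL array stood above the highest RDL array. Dmrt2 in CDL had a mean 1.84 times that in RDL, a log2 difference of 0.88 ± 0.26 (SE, interval 0.33 to 1.42, adjusted p = 0.0494), and the arrays overlapped, since CDL replicate 3 at 193 was below RDL replicate 2 at 203. Of the tested genes 7.61% were called here, 3.68% higher and 3.94% lower, and the arrays of 19.9% did not overlap. By the size of the increase Tcf15 was 20th and Dmrt2 101st. The Dmrt2 call is at its limit: it was lost when any of 10 of the 15 arrays was left out and under 6 of 11 other alternatives. Some of the 10 were ES or day 4 arrays. Leaving these out kept the difference at 0.88 and moved only its limma adjusted p, to between 0.0612 and 0.0703. Without the RDL array that stood apart, Dmrt2 differed by 0.62 (adjusted p = 0.127) and Tcf15 by 1.25 (adjusted p = 0.000593).

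The change of the medium difference between days was tested as an interaction, the day 6 difference minus that at day 4. It was 3.46 ± 0.31 for Tcf15 (SE, interval 2.80 to 4.11, adjusted p = 6.09e-06) and 2.55 ± 0.36 for Dmrt2 (SE, interval 1.78 to 3.32, adjusted p = 0.000418). Of the tested genes 5.39% were called, 2.31% of them with a positive and 3.08% with a negative value. The Tcf15 value was the largest in size of all 12400 genes, and that of Dmrt2 the 11th. Over 26 alternatives Tcf15 was 1st in 22 and 2nd in the others, and Dmrt2 was between 5th and 35th. Leaving out CDL replicate 1 of day 4 gave 3.52 for Tcf15 and 2.49 for Dmrt2, and leaving out RDL replicate 1 of day 6 gave 3.21 for Tcf15 and 2.29 for Dmrt2. Because line, strain and reporter change with the day, their part in this change cannot be told apart from that of time.

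**Figure D2:**
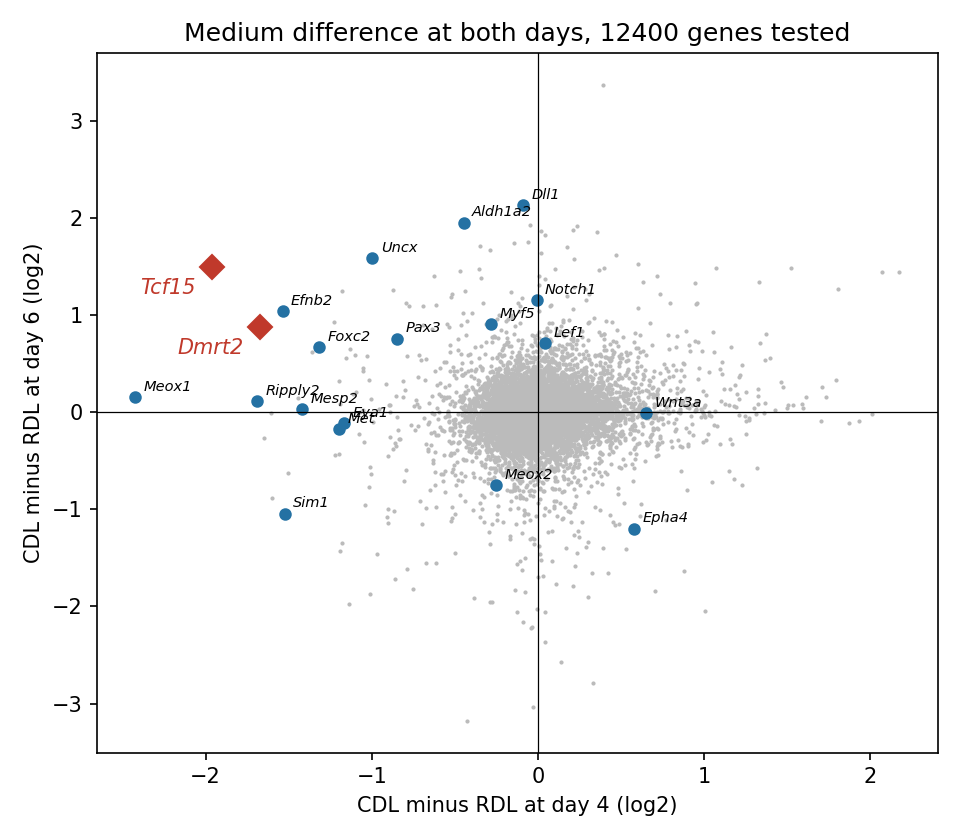
Log2 difference CDL minus RDL at day 4 (x axis) and day 6 (y axis) of the 12400 tested genes, with both members as red diamonds and named list genes as blue points. Tcf15 (-1.96 and 1.50) and Dmrt2 (-1.67 and 0.88) lie in the upper left, lower in CDL at day 4 and higher at day 6.

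A lower level in CDL at day 4 and a higher one at day 6, each called on its own, was found for 21 genes with Tcf15 and Dmrt2 among them, 0.169% of those tested. They are 11.2% of the 188 genes lower in CDL at day 4 and 4.61% of the 456 higher at day 6. The place of Dmrt2 among them needs its day 6 call. That call was lost on leaving out each of 10 of the 15 arrays in turn and under 6 of 11 other alternatives. Some of the 10 arrays were outside the groups compared. The 21 also held Efnb2, an ephrin ligand of the segment boundary, Fgf18, a fibroblast growth factor, and Hey1, a Notch target. Efnb2 differed by -1.54 at day 4 and 1.04 at day 6, Fgf18 by -1.18 and 1.25, and Hey1 by -0.87 and 1.26. Efnb2, Fgf18 and Hey1 were picked here after their values were seen, as were the next 2 genes. The largest interactions after Tcf15 were negative, -3.12 for the homeobox gene Otx2 and -3.05 for Trh, which encodes a releasing hormone.

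Against earlier groups, both genes were higher in the later cells of CDL medium. From day 4 to day 6 in CDL, Tcf15 reached a mean 11.8 times that of day 4 (log2 difference 3.37 ± 0.22, adjusted p = 6.50e-09) and Dmrt2 was at least 20.0-fold higher (fitted difference 3.53 ± 0.26, adjusted p = 2.58e-08), with no overlap of arrays. In CDL 39.4% of genes were called between the days, 17.4% higher and 22% lower, the arrays of 47.6% did not overlap, and Tcf15 ranked 27th by increase. In RDL the genes parted: Tcf15 differed by -0.09 ± 0.22 (interval -0.55 to 0.38, adjusted p = 0.803), while Dmrt2 in day 6 cells was 2.21 times its day 4 mean (0.99 ± 0.26, adjusted p = 0.00785), with overlapping arrays. In RDL 31% of genes were called, 13.8% higher, and the arrays of 44.2% did not overlap. The Tcf15 difference in RDL was 0.16 without RDL replicate 1 of day 6.

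**Figure D3:**
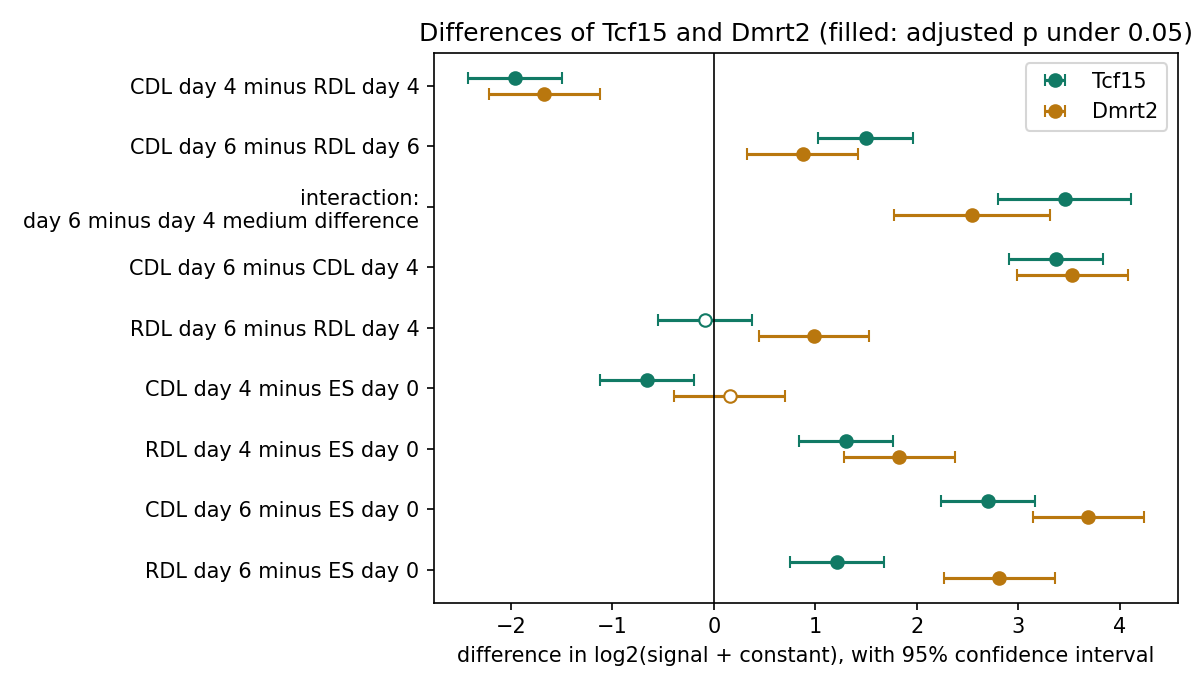
Fitted log2 differences with their 95% intervals (x axis) for Tcf15 and Dmrt2 in each comparison, higher in the first-named group to the right of 0, and filled where called. The CDL minus RDL values lie left of 0 at day 4 and right of 0 at day 6 for both genes.

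Relative to ES cells, day 4 cells in RDL had 2.60 times the Tcf15 mean (log2 difference 1.30 ± 0.22, adjusted p = 8.81e-05) and Dmrt2 at least 4.85-fold higher (fitted difference 1.83 ± 0.26, adjusted p = 1.43e-05). In that comparison 57.1% of genes were called, 27.6% higher, and the arrays of 69.8% did not overlap, as those of both members did not. In CDL at day 4, Tcf15 was below its level in ES cells, 0.603 times as high (-0.66 ± 0.22, adjusted p = 0.0166), where 56.2% of genes were called, 29.6% lower. Dmrt2 differed from ES cells there by 0.16 ± 0.26 (interval -0.39 to 0.70, adjusted p = 0.636), although each CDL array read higher than every ES array, as the arrays of 70.4% of genes did not overlap in either direction. The Tcf15 call was lost without ES replicate 3 (-0.58, adjusted p = 0.0672) and without CDL replicate 2 (-0.55, adjusted p = 0.0751), and it was -0.73 (adjusted p = 0.0189) without the CDL array that stood apart. At day 6, CDL cells had 7.13 times the Tcf15 mean of ES cells and Dmrt2 at least 19.7-fold higher (adjusted p = 2.35e-08 for Tcf15 and 4.55e-09 for Dmrt2). There 61% of genes were called, 27.8% higher, and 68% did not overlap. RDL cells of day 6 had 2.49 times the Tcf15 mean (adjusted p = 0.000153) and Dmrt2 at least 10.7-fold higher (adjusted p = 9.48e-08). There 61.6% of genes were called, 28.3% higher, and 67.2% did not overlap. More than 1 gene in 2 was called against ES cells, so such a call does not set the members apart.

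In order of level, Tcf15 ran from CDL at day 4 through ES cells, RDL at day 6 and RDL at day 4 to CDL at day 6, and the 2 RDL groups were the only neighbours whose difference was not called. CDL at day 6 exceeded RDL at day 4 by 1.41 for Tcf15 (adjusted p = 0.000127) and 1.86 for Dmrt2 (adjusted p = 4.02e-05), where 31% of genes were called, 13.4% higher, and 43.5% did not overlap. Dmrt2 ran from ES cells and CDL at day 4, both near the floor and without a call between them, through RDL at day 4 and RDL at day 6 to CDL at day 6. For Dmrt2 RDL at day 4 and RDL at day 6 overlapped in arrays while their means differed.

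The replicate with the highest signal was the same for both genes in 3 of the 5 groups. The replicate with the lowest was the same in those groups and also in ES cells. Replicate 2 was the highest of both genes in RDL at day 4, in CDL at day 6 and in RDL at day 6. Replicate 1 was the lowest of both in ES cells and in RDL on both days, and replicate 3 in CDL at day 6. In CDL at day 4 the order was turned, since replicate 2 was lowest for Tcf15 and highest for Dmrt2, and in ES cells replicate 3 was highest for Tcf15 and replicate 2 for Dmrt2. The 2 RDL groups correlate by replicate number over all genes, so they are not counted as separate cases. For CDL and RDL at day 6, replicates 1 and 2 also correlated by number (r = 0.609 and 0.588). Replicate 3 did not (r = -0.241). These are descriptions of 3 arrays a group, and the sources of this spread were not tested.

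Over the 15 arrays Tcf15 and Dmrt2 correlated with r = 0.934 (Spearman's rho = 0.857), which describes points that share 5 groups. Among 11872 genes, Dmrt2 was the 3rd most like Tcf15, behind Add3 (r = 0.962), a membrane skeleton protein, and Peli2 (r = 0.935), an E3 ubiquitin ligase. Proser2 (r = 0.929), Fgf18 (r = 0.915) and Ntn1 (r = 0.915), which encodes the guidance cue netrin-1, came next. Most like Dmrt2 were Rcsd1 (r = 0.982), a protein that binds actin capping protein, Pax3 (r = 0.965), P3h2 (r = 0.965), a collagen prolyl hydroxylase, and Cadm1 (r = 0.960), an adhesion molecule. Nr2f2 (r = 0.954), a nuclear receptor, and Rragd (r = 0.953), a GTPase of nutrient sensing, followed. Tcf15 came 24th for Dmrt2. Because the day 6 sort used a Pax3 reporter, the correlation of Pax3 with Dmrt2 is no independent finding. Running opposite were Mcu (r = -0.912), Fbxo34 (r = -0.909) and the ephrin receptor gene Epha4 (r = -0.904) for Tcf15, and Ddx4 (r = -0.958), a germline RNA helicase, Spr (r = -0.951) and Grik3 (r = -0.950) for Dmrt2.

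The genes most like the members did not all share the reversal between media. Add3 differed between CDL and RDL by -0.79 at day 4 and 1.12 at day 6, both called. Fgf18, Proser2, Pax3, P3h2 and Cadm1 were also called lower at day 4 and higher at day 6, with Proser2 at -0.46 and 0.45 and Pax3 at -0.85 and 0.76. The Pax3 value at day 6 is no independent finding, as those cells were sorted on a Pax3 reporter. Ntn1 was called lower in CDL at day 4 (-1.06) and differed by 0.43 at day 6 without a call. Nr2f2 was lower in CDL at day 4 (-1.65) and differed by -0.26 at day 6. Neither Peli2 nor Rragd was called between media on either day. For Rcsd1, the day 4 call (-0.70) was lost on averaging the gene's probe sets (-0.19).

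**Figure D4:**
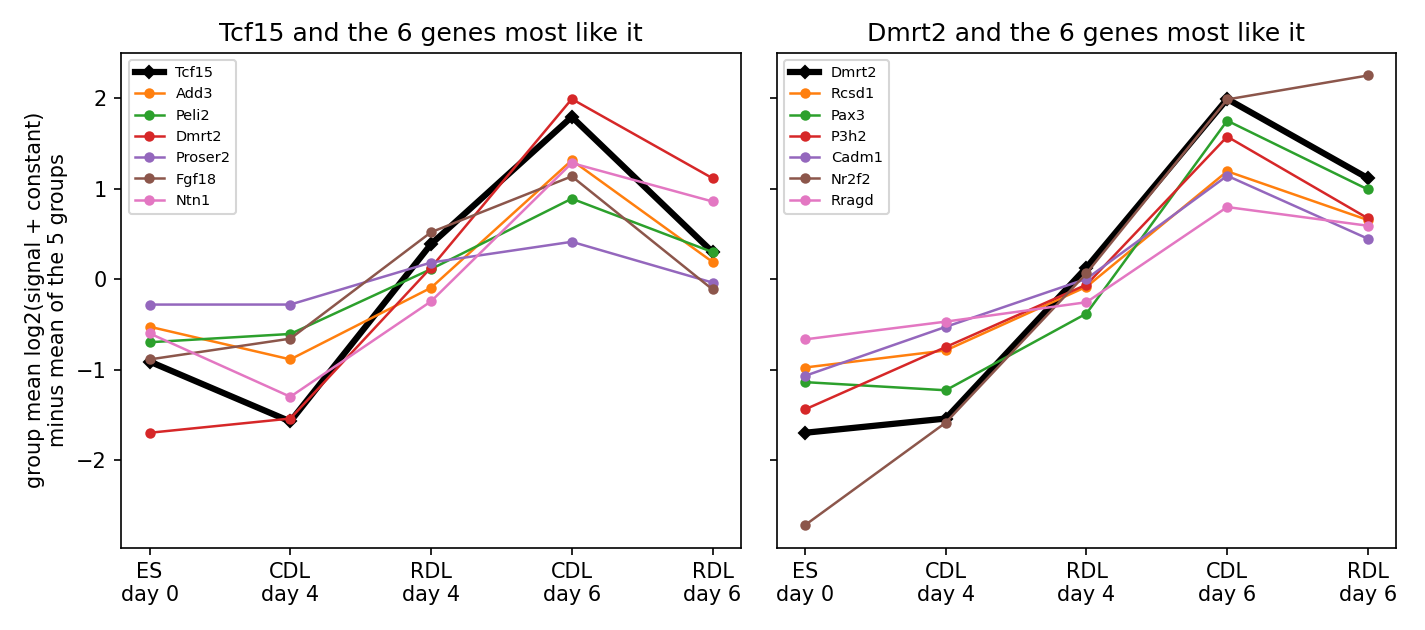
Group mean of log2 of the signal plus the constant, less the mean of the 5 groups (y axis), for Tcf15 (left) and Dmrt2 (right) in black and the 6 genes most like each over the 15 arrays. All these genes are highest at day 6, where cells were sorted on a Pax3 reporter, and Tcf15, Add3, Ntn1 and Pax3 have their lowest mean in CDL at day 4.

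Of 8 tested genes placed upstream of the members, 3 were lower in CDL at day 4 (Meox1, Mesp2 and Pax3), 1 higher (Wnt3a) and 4 not called, with a median of -0.10 against 0.00 over all genes, where 4.41% were called. Meox1, the homeobox gene placed upstream of Tcf15, averaged 97.2 ± 10.8 in CDL and 581 ± 104 in RDL at day 4 (log2 difference -2.42 ± 0.18, adjusted p = 1.24e-06), the lowest difference of the list. Mesp2, which sets the segment boundary, averaged 63.9 ± 13.3 in CDL and 196 ± 59.4 in RDL (-1.42 ± 0.21, adjusted p = 0.000783). Pax3 averaged 54.7 ± 6.99 in CDL and 108 ± 9.16 in RDL (-0.85 ± 0.15, adjusted p = 0.00225). These 3 calls have the direction of Tcf15 and Dmrt2, and that of Wnt3a the other.

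At day 6, of the 8, 2 were higher in CDL (Pax3 and Lef1), 1 lower (Meox2) and 5 not called, with a median of 0.09. Over all tested genes 7.61% were called. Without RDL replicate 1, 1 of the 8 was higher and 1 lower. Meox1, named for its role and not by its size, at 2063 ± 472 in CDL and 1827 ± 191 in RDL, differed by 0.15 without a call. Meox2 was lower in CDL, at 367 ± 108 against 611 ± 87.9 in RDL (-0.75 ± 0.17, adjusted p = 0.00928; 0.141 when only these 2 groups were fitted). Pax3 was higher in CDL (0.76 ± 0.15, adjusted p = 0.00323; 0.0664 with these groups alone). Since day 6 cells were sorted on a Pax3 reporter, the Pax3 level is no independent finding there. Myf5, placed downstream of Dmrt2, averaged 74.5 ± 17.9 in CDL and 33.2 ± 1.85 in RDL (0.91 ± 0.14, adjusted p = 0.000633). The interaction was called positive for 3 of the 8 and negative for 1, beside 2.31% and 3.08% of all genes, with Meox1 at 2.58.

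Partners and inhibitors of Tcf15 gave no call between media. Of the 7 tested E protein and Id genes, limma called 0 at day 4, at day 6 and in the interaction, and 0 had an unadjusted p under 0.05 in any of the 3. That does not show equal levels. Id1 and Tcf12 are given as examples, outside the rule on largest differences: Id1 averaged 1599 ± 742 in CDL and 1789 ± 1500 in RDL at day 4. Tcf12, an E protein, averaged 1313 ± 54.8 in CDL and 1312 ± 67.6 in RDL at day 4. Against ES cells, 6 of the 7 rose in RDL at day 4, Id1 by a log2 difference of 4.11, Id3 by 3.19 and Id2 by 2.50, and 1 fell, Id4 with a difference of -2.15. Over all tested genes 57.1% were called there, 27.6% higher.

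**Figure D5:**
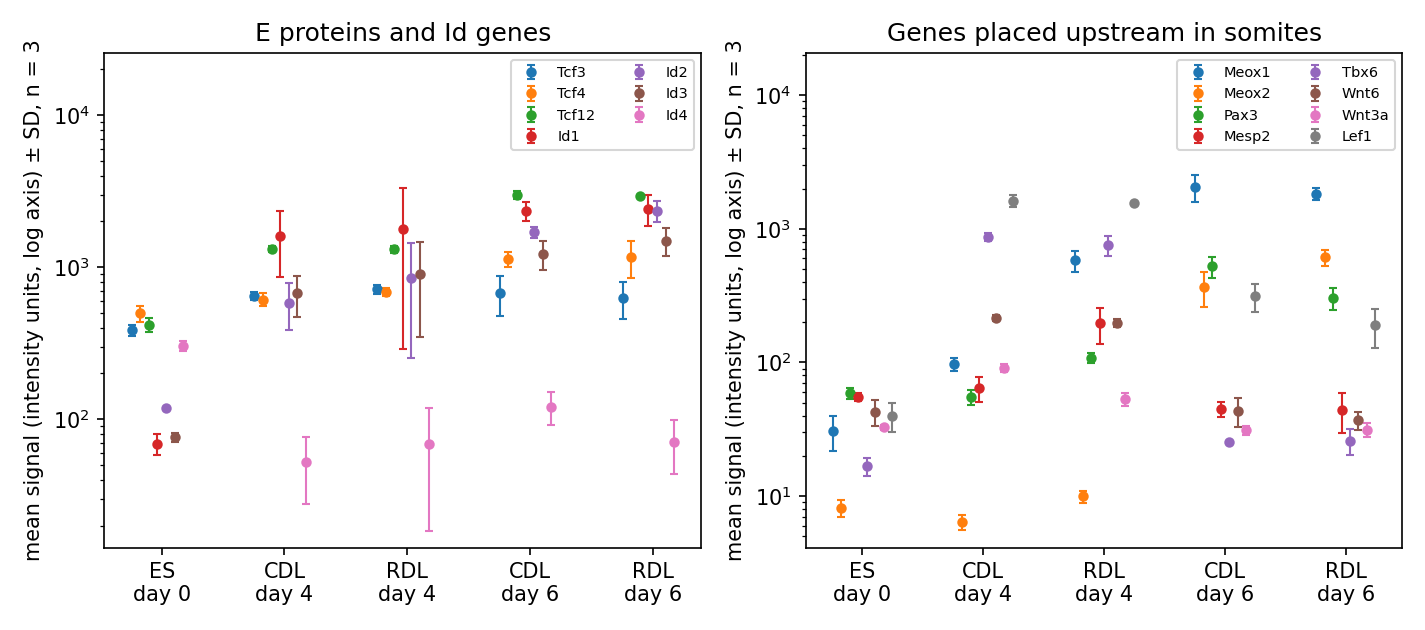
Mean signal ± SD (intensity units, log axis, n = 3) in each group for E protein and Id genes (left) and for genes placed upstream of the members (right). No E protein or Id gene was called between CDL and RDL within a day, while Meox1 is lower in CDL at day 4 and not called at day 6.

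Of the segmentation genes, 15 were tested, and at day 4 in CDL 2 were higher, 5 lower and 8 not called (median -0.09), or 1 higher and 4 lower without CDL replicate 1. Ripply2, a repressor that ends the segmentation programme, was lower by a log2 difference of -1.69, Efnb2 by -1.54, Mesp2 by -1.42 and Foxc2, a forkhead factor, by -1.32. At day 6 the counts were 5 higher, 1 lower and 9 not called (median 0.34), with the Notch ligand Dll1 at 2.14, the retinoic acid synthesis gene Aldh1a2 at 1.95 and the receptor Notch1 at 1.15 (adjusted p = 0.00407; 0.0758 with the compared groups alone). Epha4, opposite in pattern to Tcf15, was lower at -1.20. Of 15, 8 had a called positive and 1 a called negative interaction (median 1.16). Of all tested genes, 2.9% were called higher and 1.52% lower at day 4, and 3.68% and 3.94% at day 6. A positive interaction was called for 2.31% and a negative one for 3.08%. The list was written with earlier results of these data known.

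Somite and dermomyotome derivative genes numbered 11 tested, with 4 lower, 0 higher (1 at an unadjusted p under 0.05) and 7 not called in CDL at day 4 (median -0.28). Sim1 differed by -1.52, the receptor gene Met by -1.19 and Eya1 by -1.17. At day 6, 3 were higher, 2 lower and 6 not called (median -0.12), among them Uncx, a marker of the posterior somite, at 1.59 (adjusted p = 0.00599; 0.0932 with the compared groups alone) and Sim1 at -1.04. The dermomyotome genes Pax7 and En1 and the myogenic genes Myod1 and Myog were too dim to test. Among all tested genes 4.41% were called at day 4 and 7.61% at day 6.

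The list of adhesion, polarity and matrix genes is mixed and also holds Snai1 and Snai2, so its counts do not measure an epithelial state. Of its 26 tested genes, 1 was higher, 1 lower and 24 not called in CDL at day 4 (median 0.09), beside 4.41% of all genes called. They were Cdh1, the cadherin of epithelia, at 1.43, and Pcdh8, a protocadherin, at -1.45. At day 6, 0 were higher (2 at an unadjusted p under 0.05) and 4 were lower: Nid1 (-1.90), a basement membrane protein, Snai2 (-1.79), a repressor of cadherin genes, Krt8 (-1.01) and Krt18 (-0.88), and the other 22 were not called (median -0.07). Cdh1 is also a gene of pluripotent cells, and the pluripotency sum in CDL array 1 of day 4 was high. Without that array the Cdh1 difference was 1.23 (adjusted p = 0.00451) and that of Pcdh8 -1.04 (adjusted p = 0.0222). The share of these genes called at day 6 was 4 of 26, beside 7.61% of all genes, and 6 of 26 without RDL replicate 1.

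Among 7 bHLH relatives of Tcf15 tested, 3 were lower (Mesp2, Mesp1 and Twist1) and 1 higher (Msgn1) in CDL at day 4, and 0 were called at day 6 (1 at an unadjusted p under 0.05). Over all genes 4.41% were called at day 4 and 7.61% at day 6. Msgn1 marks the sort of day 4. Twist1 (-0.65, adjusted p = 0.0446) lost its call on several settings, and 2 of the 7 were lower without CDL replicate 1. Mesp1, Mesp2 and Msgn1 are also in the segmentation list, and Mesp2 among the upstream genes, so their calls were counted there too. In the DM domain family of 5 tested, Dmrt2 was the sole gene called between media on either day, and at day 6 not without RDL replicate 1. Dmrt1, a regulator of sex determination and germ cells, was lower than in ES cells at day 4, with a log2 difference of -2.55 in CDL and -2.88 in RDL. Against ES cells in RDL at day 4, Dmrt3 was lower (-0.76) and Dmrta2 higher (0.64).

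Markers of some other cell types differed between media and those of others did not. Their part in the Tcf15 and Dmrt2 differences was not tested. Over all tested genes 4.41% were called between media at day 4 and 7.61% at day 6. At day 6, of 7 fibroblast genes 4 were called lower in CDL and 0 higher, and their summed signal lay between 5192 and 7064 in CDL and between 7738 and 10086 in RDL. At day 4 the same sum was higher in CDL, 816 to 1034 against 690 to 784 in RDL, with 0 of the 7 called. The sum of 7 endothelial genes was 143 to 173 in CDL and 271 to 301 in RDL at day 6. Of these, the defining genes Cdh5, Tie1 and Erg were too dim to test, and 3 of the other 4 were called lower in CDL (2 without RDL replicate 1). The sum of 5 endoderm genes was 173 to 222 in CDL and 289 to 376 in RDL (2 of 4 tested were lower), and that of 5 neural crest genes 555 to 816 in CDL and 568 to 1176 in RDL (0 of 4 tested were called). The 9 pluripotency genes summed to 919 to 1585 in CDL and 492 to 803 in RDL at day 6, with 1 called higher. At day 4 2 of the 9 were called higher in CDL, with or without CDL replicate 1. The sum of 6 neural genes at day 4 was 1267 in CDL replicate 1 and 202 and 177 in the other CDL arrays, against 175 to 187 in RDL. In ES cells this sum was 3433 to 4164, so a high value does not by itself mark neural cells. At day 6 it was 327 to 413 in CDL and 201 to 348 in RDL. That of 6 lateral plate and cardiac genes was 187 to 200 in CDL and 190 to 246 in RDL at day 6.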

How the data were processed

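RNA from mouse ES cells and sorted paraxial mesoderm was hybridised, after labelling in 2 cycles, to 15 Affymetrix arrays. The deposited series values are intensity signals, made by the authors with MAS5, per the submitters' processing notes, whose version the sources used here do not state. The 45101 probe sets hold 64 controls. Of the others, 34945 carry 1 gene symbol, 932 several and 9160 none in the platform annotation; only the first kind was used, the brightest probe set standing for a gene. Genes above the array's 50th percentile on at least 3 arrays were tested. The signal plus 12.6, the median of the arrays' 25th percentiles, was put on the log2 scale. All 5 groups were fitted together with limma 3.58.1 in R 4.3.3, adding a trend with intensity and adjusting by Benjamini and Hochberg's method; figures used Python 3.11.15 and matplotlib 3.10.9. Array number limits precision. The fit was tested on simulated data. No pair of arrays held identical values, and no batch is given in the labels or headers. Named genes were, per member, the 6 most and 3 least alike over 15 arrays, and per list the 4 largest called differences in a comparison; Otx2, Trh, Efnb2, Fgf18, Hey1, Id1, Tcf12 and Meox1 at day 6 were named outside it. The members and lists were chosen with earlier results of these data known. Lists share members, among them Mesp1, Mesp2, Msgn1, Tbx6, Pax3 and Lef1, so their counts are not separate. In RDL, day 6 and day 4 samples of the same number correlated by 0.219, 0.258 and 0.285 after removing group means, each best with its own number. In no other comparison did all 3 exceed 0.1. CDL and RDL gave 0.101, 0.244 and 0.096 at day 4 and 0.609, 0.588 and -0.241 at day 6, for replicates 1, 2 and 3. CDL at day 6 and day 4 gave 0.072, 0.138 and 0.139. Between media at day 4, and in CDL between days, each replicate also correlated best with its own number. Whether the number pairs samples in any comparison was not settled, and the main fit used no block. Alternatives changed the constant, normalization, filter, probe set rule, groups fitted, trend, array weights and block, and left out arrays.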

Additional observations from a re-analysis of the deposited data

Results flagged for a closer look

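The medium effect differed between days for both genes, by a tested interaction, which does not itself test the sign on each day. For Tcf15, CDL minus RDL at day 6 less the same at day 4 was 3.46 on the log2 scale (limma, adjusted p = 6.09e-06), with all 3 CDL arrays below all 3 RDL arrays at day 4 and above them at day 6. For Dmrt2 it was 2.55 (limma, adjusted p = 0.000418), with all 3 CDL arrays below all RDL arrays at day 4 and overlapping ones at day 6. The higher Dmrt2 level in CDL at day 6 was a marginal call (limma, adjusted p = 0.0494). It was lost on leaving out each of 10 of the 15 arrays in turn and under 6 of 11 other alternatives. Some of the 10 arrays were outside the groups compared.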

How the results depend on the processing

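Of 198 member values under 11 alternatives, 190 kept direction and call, 6 lost the call and 2 changed sign; of 270 with 1 array left out, 256 were kept, 12 lost the call and 2 changed sign. Array weights moved the genes called to 1700 in CDL minus RDL at day 4, 4153 at day 6 and 3681 for the interaction, and leaving out both arrays that stood apart gave 1776 at day 6 and 1237 for the interaction; fitting only the compared groups gave 442 at day 6. Leaving out single arrays gave 341 to 797 genes at day 4 (341 without RDL replicate 2 and 353 without RDL replicate 1), 684 to 1512 at day 6 (1512 without RDL replicate 1) and 482 to 1216 for the interaction (1216 without RDL replicate 1 of day 6). The Dmrt2 difference at day 6 lost its call with the smaller constant (0.93, adjusted p = 0.0641), with no filter (0.88, 0.0562), with mean probe sets (0.88, 0.0569), with the compared groups alone (0.88, 0.173), with no trend (0.88, 0.0560) and without both arrays (0.62, 0.104), and ranged from 0.62 to 1.18 on leaving out single arrays. Tcf15 in RDL at day 6 minus day 4, never called, was 0.013 with array weights and 0.16 without both arrays, and ranged from -0.26 to 0.16 without single arrays (0.03 without RDL replicate 2 of day 4). Tcf15 in CDL at day 4 minus ES cells ranged from -0.73 to -0.55. The causes were not tested. With the replicate number as a block, no member call changed: Dmrt2 at day 6 gave 0.88 (adjusted p = 0.00750), and RDL day 6 minus day 4 gave 0.99 for Dmrt2 (adjusted p = 0.000870) and -0.09 for Tcf15 (adjusted p = 0.779). Other probe sets could not be tried, since each member has 1. The number of arrays, and signals near the floor for Dmrt2, limit these results.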

Other observations

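Of 8 tested genes of epiblast priming, a state in which Tcf15 has been reported in ES cells, 2 were higher, 2 lower and 4 not called in CDL at day 6, where 7.61% of all genes were called, and 1 was higher and 2 lower without RDL replicate 1. Otx2 averaged 17.0 ± 0.948 in CDL and 192 ± 21.3 in RDL, a log2 difference of -2.79, and Fgf5 averaged 11.0 ± 2.10 in CDL and 54.1 ± 5.81 in RDL, a difference of -1.50. Zic2 averaged 144 ± 38.6 in CDL and 55.0 ± 9.62 in RDL, a difference of 1.19, and Lef1 differed by 0.71 (limma, adjusted p = 0.0488), a call lost on several settings. At day 4 limma called 0 of the 8 between media, and 1 had an unadjusted p under 0.05.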
